A study of Mus musculus with 48 samples.

Results

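Loaded mouse knee joints given a nanoparticle carrier with a negative control small interfering RNA (siNEG, n = 12) were compared with loaded joints left untreated (n = 12). These 24 samples were chosen by their titles from 48 in the series. The comparison addresses what the carrier and a control RNA do to inflammation genes of an injured joint, apart from any knockdown of a target. The mice of all groups were C57BL/6 males, with an age of 3 months in the labels. In both loaded groups, knees received 500 compressive cycles at 9 N from 8 weeks of age, 5 times per week for 4 weeks, a noninvasive model of post-traumatic osteoarthritis. The carrier is a polymer nanoparticle bearing an antibody to type II collagen, the main collagen of cartilage. The siNEG joints therefore differed from the untreated joints by the control RNA, the polymer, the antibody and the act of giving them, and these cannot be told apart. Dose, route and timing are not given in the sources used here. The labels do not say that each sample is a separate animal, so p-values measure the spread between samples. Healthy joints (n = 12) and loaded joints given the same carrier with an siRNA against Mmp13 (siMMP13, n = 12) serve to place levels. They also enter the count filter, the estimate of spread in the main fit, and comparisons set beside the main one.

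RNA of synovial tissue and of cartilage with subchondral bone was counted with an nCounter inflammation panel, in which barcoded probes hybridise to RNA and are counted without amplification. Of 248 endogenous genes, 196 had over 20 counts in at least 12 of the 48 samples and were tested. Levels are given as normalized counts, that is, counts scaled by the geometric mean of the housekeeping genes Cltc, Gapdh, Gusb, Hprt, Pgk1 and Tubb5. Because whole tissue was lysed, fewer cells of a type and less RNA per cell cannot be told apart. The probes analysed here include neither Mmp13 nor a gene of cartilage or bone matrix, and the tissue label and the target of the other siRNA therefore went unchecked.

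Double-stranded RNA taken up into cells can be detected by receptors in endosomes, among them Tlr3 and Tlr7, and by sensors in the cytosol. These receptors signal through adaptors and interferon regulatory factors to interferon and its target genes. Antibodies can start the classical complement pathway through C1q, and particles are cleared largely by macrophages, which in the synovium line the joint. Genes of these arms are on the panel, but the sensor list used below holds only endosomal receptors, the adaptor Myd88 and interferon regulatory factors. It holds no cytosolic RNA sensor.

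Between siNEG and untreated joints, 2 genes were called higher with siNEG, Ccl19 and Traf2. Ccl19, a chemokine that draws dendritic cells and T cells through the receptor Ccr7, was 1.58-fold higher with siNEG. Traf2, which encodes an adaptor of TNF receptors, was 1.24-fold higher. These 2 calls are 1.02% of the 196 genes tested, and calls in either direction numbered 3, or 1.53% (edgeR's quasi-likelihood test, Benjamini-Hochberg adjusted p under 0.05). In 0 of the 196 genes did the normalized counts of the groups fail to overlap, and for 2 genes the fitted change exceeded 2-fold, neither of them called. By the same test and scaling, 46.4% of the genes were called between untreated and healthy joints and 50% between siNEG and healthy joints.

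Ccl19 ran from 81.9 through a median of 114.5 to 156.6 normalized counts in untreated joints. With siNEG it ran from 102 through 173 to 336.4. The groups overlapped, 8 of 12 siNEG samples lay above every untreated sample, and 11 of 12 lay above the untreated median. The log2 fold change was 0.66 ± 0.16 (SE, n = 12 per group, edgeR adjusted p = 0.035), with a 95% interval of 0.27 to 0.97 from limma on log2 values. That limma fit did not call Ccl19, and its interval is not adjusted for the number of genes. Pseudogene copies of Ccl19 are annotated in the mouse genome, and whether the probe also binds their RNA was not tested.

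Traf2 was measured at 76.1 to 111 normalized counts in untreated joints, with a median of 92.8. In siNEG joints it lay between 102 and 131.8, with a median of 115.3. All 12 siNEG samples exceeded the untreated median and 7 exceeded every untreated sample. Its log2 fold change was 0.31 ± 0.06 (edgeR adjusted p = 0.023, 95% interval 0.16 to 0.46).

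**Figure D1:**
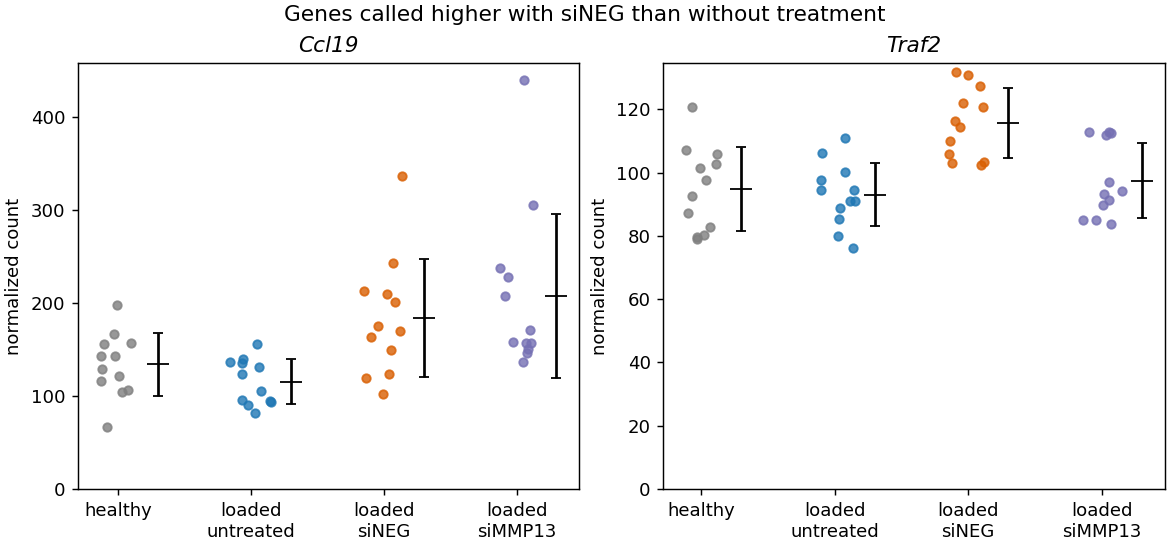
Normalized counts (linear axis from 0) of Ccl19 and Traf2 in each of the 12 samples of the 4 groups, with mean and SD as black bars. In siNEG joints both genes sit above most untreated samples, and the clouds of these groups overlap.

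The other carrier group gives a second set of levels for these genes, although it shares the untreated samples with the comparison above. Ccl19 had a mean of 184 ± 64.0 normalized counts with siNEG and 208 ± 88.2 with siMMP13 (SD, n = 12 each), against 116 ± 24.4 without treatment and 134 ± 34.3 in healthy joints. The siMMP13 and siNEG groups were not called different for Ccl19 (log2 difference 0.18 ± 0.20, edgeR adjusted p = 0.55). Traf2 was at 116 ± 10.9 with siNEG but 97.4 ± 11.8 with siMMP13, which is near the untreated mean of 93.0 ± 10.05 and the healthy mean of 94.7 ± 13.4. For Traf2 the siMMP13 minus siNEG difference passed (-0.25 ± 0.06, adjusted p = 0.043), in a comparison that called 6.12% of the genes.

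Depth differed between the groups compared. The total gene count ran from 44738 to 187825 in siNEG samples (median 116985) and from 111645 to 229976 in untreated samples (median 162624), and 6 of 12 siNEG samples lay below every untreated sample. The housekeeping mean was 1.59-fold lower with siNEG (two-sided permutation test with 100000 resamples, p = 0.00038, adjusted p = 0.0015 over 4 technical measures). The negative and positive control probes were also lower, by 1.38-fold (adjusted p = 0.0043) and 1.16-fold (adjusted p = 0.019). Which cartridge held which sample is not given in the sources used here.

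**Figure D2:**
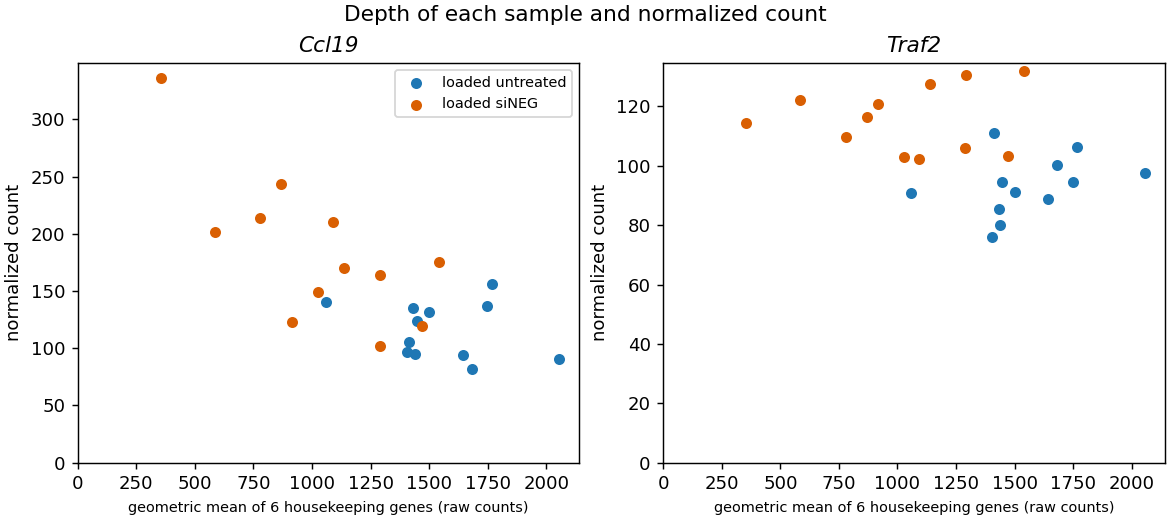
Normalized counts of Ccl19 and Traf2 (vertical axes, from 0) against the geometric mean of the 6 housekeeping genes in raw counts, a measure of depth, for the 12 siNEG and 12 untreated samples. The highest Ccl19 value, 336.4, belongs to the siNEG sample of lowest depth.

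Depth moved with Ccl19 in the siNEG group. Across its 12 samples, the log2 level of Ccl19 and the log2 housekeeping mean had Pearson's r = -0.73 (permutation p = 0.0076, adjusted p = 0.046 over 6 relations) and Spearman's rho = -0.63 (p = 0.033, adjusted p = 0.20). Without the 2 samples farthest from the median depth, r was -0.47, so the relation rests in part on them, and the housekeeping mean is also the divisor of the normalized count. In untreated samples r was -0.27 (p = 0.40, adjusted p = 0.80). For Traf2 r was 0.02 in siNEG and 0.33 in untreated samples. With depth as a covariate, neither gene passed edgeR's test, which called 0 genes with 27 at an unadjusted p under 0.05. Ccl19 was then at 0.37 (adjusted p = 0.35) and Traf2 at 0.28 (adjusted p = 0.12). In the depth range that both groups share, with 6 siNEG and 7 untreated samples, the log2 fold changes were 0.41 and 0.38, and edgeR called 0 genes with 6 at an unadjusted p under 0.05. Without siNEG replicate 10, the shallowest sample, Ccl19 was at 0.56 (edgeR adjusted p = 0.15).

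The scaling genes did not move as one. Each is divided by the geometric mean of all 6, so values above 0 had to be balanced by values below 0. Only their differences from each other can be read. Traf2 shares their divisor, and the values of Gapdh and Pgk1 lay nearest to its change of 0.31, a likeness that was not tested. Traf2 was still called with Gapdh, Hprt or Pgk1 left out of the scaling, and not with Cltc, Gusb or Tubb5 left out. On the log2 normalized scale, siNEG minus untreated was 0.25 ± 0.12 for Gapdh and 0.21 ± 0.10 for Pgk1, which encode glycolytic enzymes. It was -0.17 ± 0.11 for Cltc, -0.15 ± 0.06 for Hprt, -0.11 ± 0.12 for Gusb and -0.02 ± 0.15 for Tubb5. When edgeR was run on total-count, TMM or DESeq2 scaling instead, it called 0 genes, with 20, 20 and 21 at an unadjusted p under 0.05. Ccl19 was then at 0.57 to 0.60 and Traf2 at 0.25 to 0.28, so the directions held while the calls did not.

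**Figure D3:**
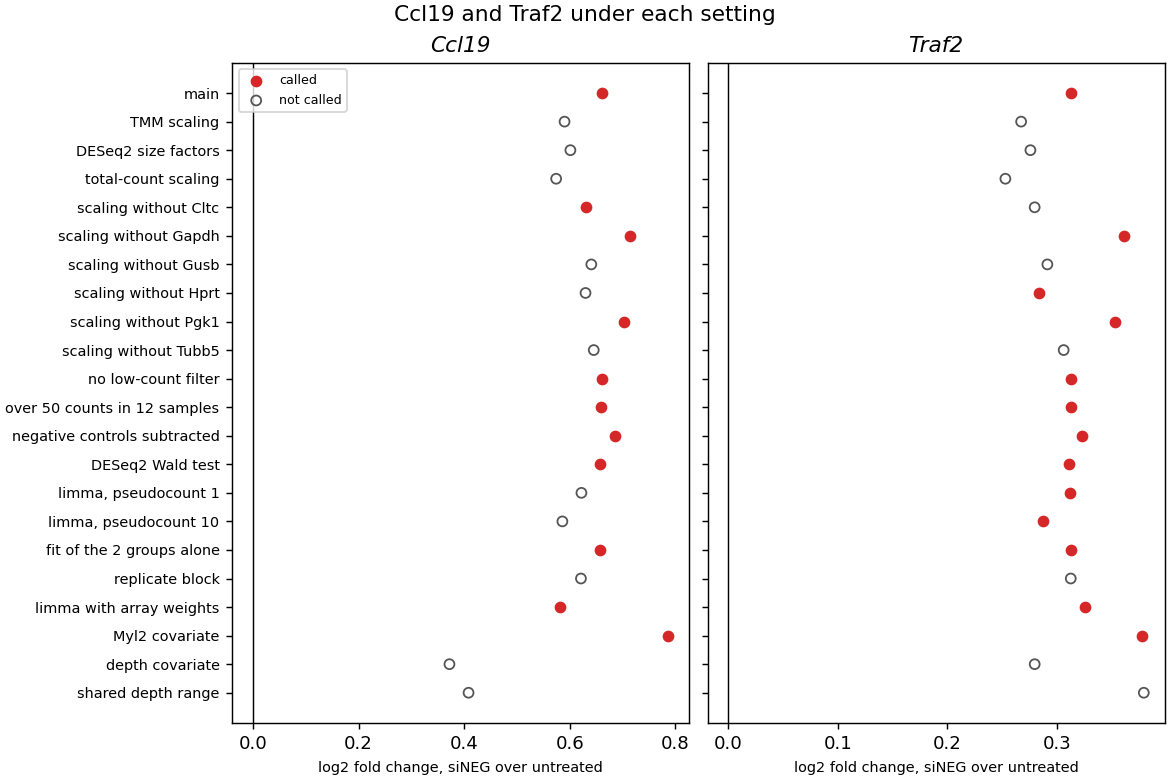
Fitted log2 fold change of siNEG over untreated joints (horizontal axes) for Ccl19 and Traf2 under each setting (rows); filled red points passed at an adjusted p under 0.05 and open points did not. No point crosses 0, and neither gene is filled in the rows for total-count, TMM or DESeq2 scaling, for scaling without Gusb or Tubb5, for the replicate block, or for the depth covariate and shared depth range. Ccl19 alone is also open for scaling without Hprt and for limma without array weights, and Traf2 alone for scaling without Cltc.

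Most differences were small, and many were bounded. Of the 196 genes, 187 had a fitted log2 fold change within 0.5 of 0, with a median of 0.04 over all genes, and 121 (61.7%) lay above 0. That median was -0.00 under TMM, 0.01 under DESeq2 and -0.01 under total-count scaling. The TMM and DESeq2 factors are drawn from the genes themselves and hold the median near 0, so they cannot show where the excess came from. Total-count scaling uses the sum over the genes, which does not fix the median. The source of the excess was not tested. With Cltc left out of the housekeeping scaling the median was 0.00, and with Gapdh left out it was 0.09. For 182 genes the 95% interval lay wholly within a 2-fold change, and for 108 it lay within 0.5 on the log2 scale. The remaining 14 genes had intervals that reached past a 2-fold change, so a change of that size lay within the error for them. Among them were Ccl2 (-1.18 to 1.00), which encodes a monocyte chemokine, and Mmp3 (-0.79 to 1.17), which encodes a matrix-degrading metalloproteinase. A p below 0.05 before adjustment was found for 16 genes (8.16%), 10 with a positive and 6 with a negative fold change.

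**Figure D4:**
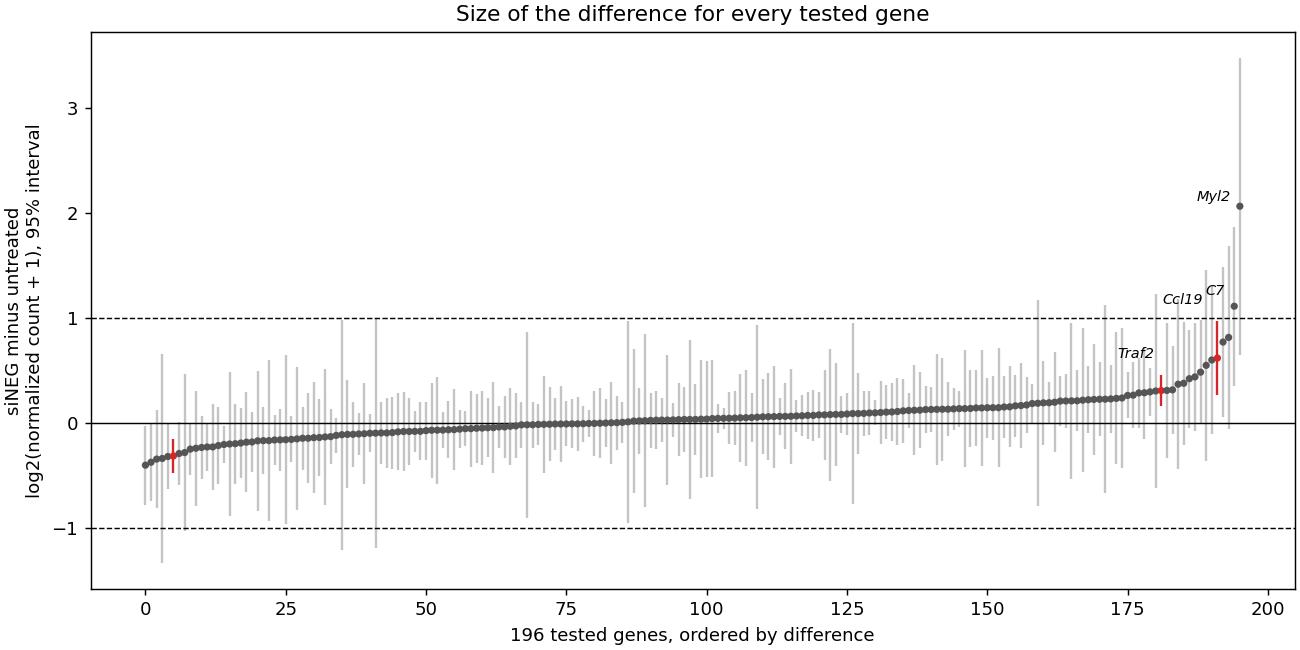
Difference in mean log2(normalized count + 1) between siNEG and untreated joints for each of the 196 tested genes, with 95% intervals from limma; called genes are red, and dashed lines mark a 2-fold change. Most intervals stay between the dashed lines, and the widest, at the right, belongs to Myl2.

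Receptors and interferon regulators that respond to nucleic acid did not pass. Tlr3, the receptor for double-stranded RNA in endosomes, was above the negative controls in 0 of 12 untreated and 0 of 12 siNEG samples and was not tested. Tlr7, the endosomal receptor for single-stranded RNA, had medians of 84.3 untreated and 88.8 with siNEG (log2 fold change -0.06 ± 0.14, 95% interval -0.44 to 0.32). Tlr9, which detects DNA, was at -0.18 ± 0.24. Irf7, the interferon-induced regulatory factor, ran from 538 to 2040 normalized counts in untreated and from 730 to 1840 in siNEG joints, with medians of 1170 and 1056 (0.07 ± 0.20). Of 8 tested genes on this list, 0 were called, 0 had an unadjusted p under 0.05, and the median log2 fold change was 0.01 beside 0.04 over all genes.

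No interferon response gene passed. Of 17 on the panel, 14 were tested and 0 were called by edgeR, 0 had an unadjusted p under 0.05, and their median was 0.03. The interferon genes Ifna1, Ifnb1 and Ifng did not pass the count filter. Ifit1, an antiviral RNA-binding protein gene, ran from 103 through 314.4 to 529.6 normalized counts without treatment and from 174 through 259.6 to 588.7 with siNEG. The groups overlapped over most of their range, with a log2 fold change of 0.01 ± 0.26 (edgeR adjusted p = 0.99) and a 95% interval of -0.80 to 0.85. Ifit3 (0.10 ± 0.24) and Oas1a (0.09 ± 0.13), which encodes a synthetase activated by double-stranded RNA, did not pass either. Ifi44 had medians of 311.5 untreated and 286.5 with siNEG, and its highest siNEG value was 1040 against an untreated maximum of 489.3 (0.29 ± 0.26). Iigp1, an interferon-induced GTPase gene, reached 2103 with siNEG against 731.2 at most without treatment, while its median was 294 with siNEG and 350.7 untreated (0.52 ± 0.32, adjusted p = 0.80). The difference of its mean log2 values was 0.24. The highest Ifi44 and Iigp1 values came from siNEG replicate 10, the sample with the lowest counts, and the part of depth in them was not tested. The medians of the sensor and the interferon response lists lay between -0.04 and -0.00 under TMM, DESeq2 and total-count scaling. With the depth covariate they were 0.06 and 0.24, and in the shared depth range -0.12 and -0.14, so neither list had a direction that held.

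Complement genes had the highest median among the 14 pathway lists, and none of them was called. Of 20 on the panel, 14 were tested, 11 had a fitted value above 0 and 3 had an unadjusted p under 0.05. Over all tested genes, 61.7% lay above 0 and 8.16% had an unadjusted p under 0.05. The complement median log2 fold change was 0.24 beside 0.04 over all genes, and 0.19 to 0.31 under the 3 other scalings, both covariates and the shared depth range. C7, a component of the membrane attack complex, ran from 7.48 through 23.8 to 87.9 normalized counts in untreated and from 22.4 through 72.6 to 114.4 in siNEG joints (1.06 ± 0.37, edgeR adjusted p = 0.28). Cfd, the adipocyte-derived protease factor D, ran from 315 through 899.8 to 1374 and from 661 through 1574 to 3061 (0.82 ± 0.26, adjusted p = 0.50). C3, the central component, had medians of 1904 and 2239, and 12 of 12 siNEG samples lay above the untreated median (0.30 ± 0.07, adjusted p = 0.50). The first component genes C1ra and C1s were at 0.29 and 0.40, C2 at 0.42, and C1qa, the macrophage-made recognition subunit, at -0.05 ± 0.11. For C3 the call was made when the 2 groups were fitted alone, and for C7 under array weights and without untreated replicate 7. The SD of C3 was 226 normalized counts in both untreated and siNEG joints, but 326 with siMMP13 and 956 in healthy joints. The main fit includes all of them. Counts for C4a (0.22) may include its near-identical copy C4b.

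Among chemokines, Ccl19 passed and Ccl21a, which shares its receptor Ccr7, did not, and the difference between them was not tested. Of 13 tested CC chemokines and receptors 1 was called, with 7 fitted values above 0 (61.7% over all genes) and a median of 0.02. That median was -0.03 to -0.02 under the 3 other scalings, 0.21 with the depth covariate and -0.17 in the shared depth range. Ccl21a ran from 1045 through 1451 to 3266 normalized counts untreated and from 873 through 2038 to 4269 with siNEG (0.44 ± 0.24, adjusted p = 0.92), and its probe may also count near-identical copies. Ccr7 was at 36.8 and 31.5 in median (-0.18 ± 0.12). Ccl11, the eosinophil chemokine eotaxin, was at 0.63 ± 0.32 (adjusted p = 0.64), and Ccr1, a receptor of inflammatory chemokines, at -0.25 ± 0.09 (adjusted p = 0.57). Ccl2 had medians of 1931 and 1834 with ranges of 418 to 5603 and 391 to 3250. Of 8 CXC chemokines and receptors 0 were called by edgeR and 1 had an unadjusted p under 0.05, with a median of 0.08, which was 0.27 with the depth covariate and -0.08 in the shared depth range. The gene under 0.05 was Cxcl9, a T-cell chemokine induced by interferon gamma, with medians of 238.8 and 308.4 (0.54 ± 0.27, adjusted p = 0.51). Cxcl10, a second interferon-induced chemokine, was at 0.09 ± 0.37.

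Traf2 was the one called member of the interleukin-1, interleukin-6 and TNF list. In that list 8 of 16 tested genes were fitted above 0 (61.7% over all genes), with a median of -0.00. The partners of Traf2 in TNF receptor signalling, Tradd, Ripk1 and Birc2, were at -0.01, 0.00 and -0.02. Tnf itself ran from 48.3 through 65.9 to 87.0 normalized counts in untreated and from 32.0 through 62.3 to 100.9 in siNEG joints (0.00 ± 0.16, edgeR adjusted p = 0.99). Il1b was at 0.29 ± 0.20 (adjusted p = 0.80), with a siNEG maximum of 803.7 against an untreated maximum of 320.8. Il6 had low counts, with medians of 19.2 and 25.8, and exceeded background in 11 of 12 untreated and 10 of 12 siNEG samples. It was above the untreated median in 7 of 12 siNEG samples (0.58 ± 0.26, adjusted p = 0.51, 95% interval -0.07 to 0.95). That interval surrounds limma's log2 difference of 0.44. Il6ra, its receptor, was at -0.27 ± 0.14 (adjusted p = 0.68). Of 7 genes of the NF-kB pathway, onto which TNF receptors signal, edgeR called 0, with 0 at an unadjusted p under 0.05. Tnfaip3, a feedback inhibitor (0.13 ± 0.10), and Relb (0.13 ± 0.10) had the smallest p-values of that list.

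The stress-activated kinase genes Mapk14 and Mapk8 were at -0.09 and 0.03, and the transcription factor genes Fos and Jun at -0.13 and -0.18. Max, the partner of Myc, was at -0.20 ± 0.08 (adjusted p = 0.51) and was below the untreated median in 10 of 12 siNEG samples. Cebpb was at 0.22 ± 0.08 (adjusted p = 0.64), above the untreated median in 11 of 12. None of these 6 genes passed.

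**Figure D5:**
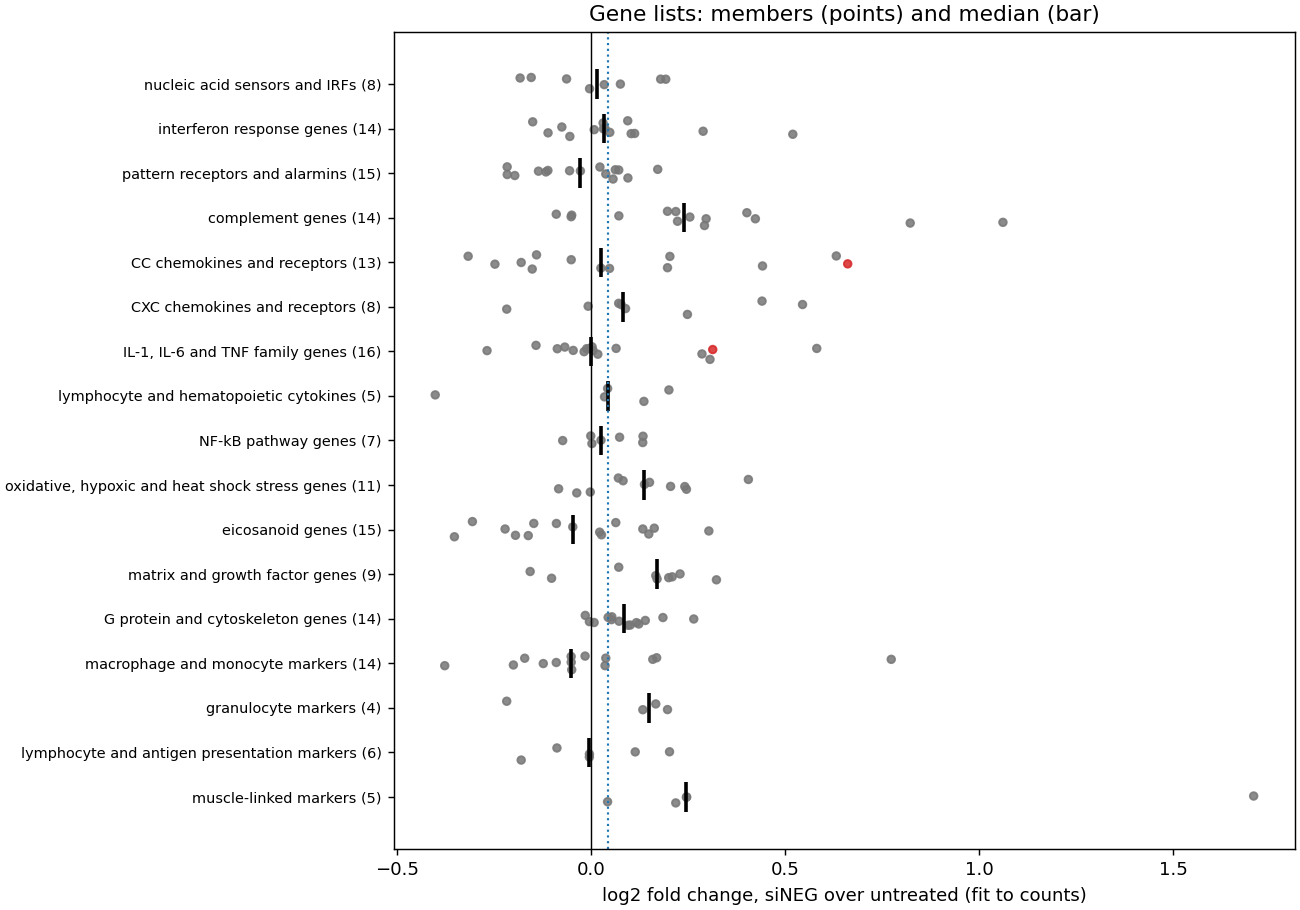
Fitted log2 fold change of siNEG over untreated joints for the tested members of 17 gene lists (points; number tested in brackets), with the list median as a bar and the median of all 196 genes as a dotted line. Called genes are red, 1 each among the CC chemokines and the IL-1, IL-6 and TNF family. The complement bar lies to the right of the dotted line, as do the muscle-linked, matrix, granulocyte, stress, G protein and CXC bars.

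No gene of the next lists was called. Of 15 surface and cytosolic pattern receptors and alarmins edgeR called 0, with 0 at an unadjusted p under 0.05, a median of -0.03 and a range of -0.22 to 0.17. Tollip, an inhibitor of toll-like receptor signalling, was at -0.11 ± 0.05 and below the untreated median in 11 of 12 siNEG samples. Of 15 eicosanoid genes 0 were called, with 1 at an unadjusted p under 0.05, a median of -0.05 and a range of -0.35 to 0.30. The median was -0.19 with the depth covariate and 0.11 with the Myl2 covariate. Alox5, the lipoxygenase that starts leukotriene synthesis, was the gene under 0.05, with medians of 201.4 and 154.9 (-0.31 ± 0.15, adjusted p = 0.57). Ptgs2, the inducible cyclooxygenase, was at 0.15 ± 0.33. Of 9 matrix and growth factor genes 0 were called and 0 had an unadjusted p under 0.05, with a median of 0.17. Mmp3 had medians of 1873 and 1895 (0.23 ± 0.34), Mmp9, carried by neutrophils, of 2518 and 2788 (0.17 ± 0.17), and Pdgfa, a growth factor gene, of 289.8 and 329.9 (0.32 ± 0.13, adjusted p = 0.62).

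Of 11 stress genes 0 were called, with 1 at an unadjusted p under 0.05 and a median of 0.14. That gene was Mafk, a small MAF transcription factor (0.20 ± 0.10, adjusted p = 0.57), and Ddit3, a marker of endoplasmic reticulum stress, was at 0.15 ± 0.11. Nos2, the inducible nitric oxide synthase, exceeded background in 9 of 12 untreated and, at lower depth, 5 of 12 siNEG joints, with a log2 fold change of 0.24 ± 0.25 (edgeR adjusted p = 0.92). Of 14 G protein and cytoskeleton genes 12 were fitted above 0 (61.7% over all genes) and 0 were called. Among them 1 had an unadjusted p under 0.05 (8.16% over all genes), and the median was 0.08. That gene was Gnas, the stimulatory G protein subunit, with medians of 3064 and 3867 and 12 of 12 siNEG samples above the untreated median (0.26 ± 0.10, adjusted p = 0.50). Only 5 of 22 lymphocyte and hematopoietic cytokines passed the count filter. Il15, which sustains natural killer and memory T cells, had medians of 64.5 and 43.5 and was below the untreated median in 10 of 12 siNEG samples (-0.40 ± 0.16, adjusted p = 0.51).

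Markers of macrophages did not separate the groups. Of 14 tested macrophage and monocyte markers edgeR called 0, with 1 at an unadjusted p under 0.05. Of these markers 5 were fitted above 0 (61.7% over all genes), with a median of -0.05. That median was -0.11 to -0.09 under the 3 other scalings and -0.15 in the shared depth range, but 0.05 and 0.01 with the Myl2 and depth covariates. Their summed level ran from 19242 to 29923 normalized counts untreated and from 17788 to 30091 with siNEG. Trem2, a lipid-sensing receptor of macrophages, had medians of 127.6 and 94.0 (-0.38 ± 0.17, adjusted p = 0.57), and its signalling adaptor Tyrobp of 6317 and 5520 (-0.12 ± 0.11). Cd163 (-0.20 ± 0.22) and Mrc1 (0.04 ± 0.07), scavenger receptors of resident macrophages, did not pass. Retnla, a marker of alternative activation, was above the negative controls in 6 of 12 untreated and 9 of 12 siNEG samples, with medians of 12.1 and 29.3 (adjusted p = 0.72). Of 4 tested granulocyte markers and 6 tested lymphocyte and antigen presentation markers edgeR called 0, with 0 at an unadjusted p under 0.05 on either list. Cd4 was at 0.20 ± 0.16, H2-Eb1, an MHC class II gene, at 0.11 ± 0.11 and the costimulatory gene Cd86 at 0.16 ± 0.11, while Cd40lg and Fasl were never above the negative controls in either group.

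The muscle myosin gene Myl2 had the largest fitted difference of all tested genes and was not called. It ran from 15.2 through 39.7 to 519.6 normalized counts in untreated and from 64.3 through 265.3 to 914.7 in siNEG joints. All 12 siNEG samples lay above the untreated median and 4 above every untreated sample (1.71 ± 0.57, edgeR adjusted p = 0.50, 95% interval 0.65 to 3.48). The interval is limma's and surrounds a log2 difference of 2.07, not edgeR's 1.71. The 5 muscle-linked markers summed to 732 to 3335 normalized counts untreated and 890 to 3030 with siNEG, with medians of 1207 and 1991, and all 5 were detected. Ppp1r12b, a myosin phosphatase subunit gene, was at 0.25 ± 0.34 and Hspb2, a muscle heat shock gene, at 0.25 ± 0.26. With log2 Myl2 as a covariate edgeR called Ccl19 at 0.79 and Traf2 at 0.38 (adjusted p = 0.011 and 0.0030), no smaller than without it. Myl2 is a single gene with a fitted difference of 1.71 between the groups, and the part of muscle content in these values was not tested.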

How the data were processed

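RNA from 48 joint samples was counted with an nCounter mouse inflammation panel. The authors deposited whole-number counts per probe, and the values show no normalization; the steps before deposit are not given in the sources used here. Probes comprised 248 endogenous genes, 6 housekeeping genes, 6 positive and 8 negative controls. Groups came from the sample titles. The library size was the geometric mean of the housekeeping genes. A gene entered the test where 12 or more samples exceeded 20 counts; the test was edgeR 4.0.16 (quasi-likelihood, R 4.3.3, all 4 groups in 1 fit), with Benjamini-Hochberg adjustment over 196 genes. Standard errors came from log2(normalized count + 1), and 95% intervals from limma 3.58.1 on those values. Fold changes came from edgeR, so an SE or interval printed with them belongs to a separate estimate. DESeq2 1.42.0, other scalings, filters, covariates and leaving out each sample were alternatives. A gene was above the negative controls where it exceeded their mean plus 2 SD in that sample. The fit was tested on simulated data.

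The members and gene lists were chosen with earlier results of these data known. Named genes were called genes, the 8 smallest p-values in each direction, a fixed list, up to 3 genes of each list with the smallest p, and the 3 genes most correlated with each called gene. Mapk8, Fos, Jun, Tradd, Ripk1, Birc2, C1ra, C1s, C2 and C4a were added after their values were seen. Samples with equal replicate numbers were not treated as pairs in the main fit. Correlations of same-numbered pairs ran from -0.50 to 0.68 with a mean of 0.08, and 4 of 12 lay above 0.1. The labels do not say what the numbers stand for, and this check cannot settle whether they pair samples. No 2 samples of a group agreed within counting noise. Some genes, 1 of them called, are not reported here. Gene symbols were matched to RefSeq for names only. Counts limit precision, and intervals cover the spread between samples.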

Additional observations from a re-analysis of the deposited data

How the results depend on the processing

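Ccl19 and Traf2 kept their direction under every alternative run, but the number of calls did not hold. edgeR called 0 genes under TMM scaling (20 at an unadjusted p under 0.05), DESeq2 size factors (21), total-count scaling (20), scaling without Gusb (13) or Tubb5 (15), the replicate block (19), the depth covariate (27) and the shared depth range (6), which was chosen after seeing the data and holds fewer samples. With the replicate block, Traf2 was at 0.31 and Ccl19 at 0.62 (adjusted p = 0.12 and 0.15). Limma with array weights called 7 genes, adding C7, Gnas, Myl2 and Il15. The cause of these changes in the calls was not tested, and the shared depth range changes both the depth and the number of samples.

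Leaving out each sample in turn gave 1 to 4 calls. Traf2 was called each time (0.29 to 0.34). Ccl19 (0.56 to 0.72) lost its call without siNEG replicate 2, 4, 5, 6 or 10 or untreated replicate 1, 2, 3, 4, 5 or 10 (adjusted p = 0.060 to 0.15). Of 73 uncalled genes followed through the alternatives, 31 changed sign in at least 1 of 45 alternatives and 5 were called in at least 1. At the depth of the shallowest sample, low-count genes such as Il6, Irf3 and Nos2 lay near the negative controls.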

Other observations

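Genes whose levels followed Traf2 and Ccl19 most closely are given as a description, over the 24 siNEG and untreated samples with group means removed; the values share a scaling factor. Traf2 varied most like Map3k1, a kinase gene (r = 0.54; 0.34 within siNEG and 0.70 within untreated samples). Ccl19 varied most like Iigp1 (r = 0.62), with 0.74 within siNEG and 0.27 within untreated samples. The highest value of both genes was in siNEG replicate 10, the shallowest sample, and r within siNEG was 0.54 without it (n = 11), a value chosen after seeing the data. The correlation of Ccl19 with Il6 was 0.72 within siNEG (0.63 without that sample) and -0.06 within untreated samples, and that with H2-Eb1 was 0.44 and 0.81.

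Samples spread more with siNEG than without treatment for 120 of 196 genes, with a median SD of 0.35 against 0.29 on the log2 scale. The siNEG samples were also shallower, and the part of depth in this spread was not tested.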
